A study of Rattus norvegicus with 9 samples.

Results

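The platelet-derived growth factor (PDGF) family was described across 9 RNA-seq libraries of cultured rat cortical neurons. Its members were the 4 ligand genes Pdgfa, Pdgfb, Pdgfc and Pdgfd and the 2 receptor genes Pdgfra and Pdgfrb. They were found by their symbols among the 22050 genes of the deposited tables, and all 6 passed the filter on low counts. The neurons had been prepared from cortices of embryonic day 19 rats (strain Sprague Dawley), and each of 3 groups had 3 libraries. In one group the cells went through oxygen-glucose deprivation (OGD) followed by normoxia and received Wnt3a at 100 ng/ml plus Rspondin 1 at 50 ng/ml, with a treatment time of 24 h. These are called protein-treated OGD cultures below. OGD cultures went through deprivation and normoxia without the proteins. The labels describe this deprivation as 4.5 h without glucose and pyruvate at 1% oxygen, and state the hours and oxygen for OGD alone. Whether deprivation and normoxia were the same in protein-treated OGD cultures is not stated there. Control cultures were untreated. The deposited tables name the group with OGD alone "Vehicle", but its labels name no vehicle. The effect of both proteins in the absence of OGD was not analysed here. OGD is a culture model of ischaemia. Wnt3a is a secreted activator of Wnt/beta-catenin signalling, and Rspondin 1 makes cells more responsive to Wnt ligands. The design was stated as a study of the genes that both proteins regulate in neurons under OGD.

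PDGF proteins act as dimers on 2 receptor tyrosine kinases. The ligands PDGF-A and PDGF-B are processed inside the cell by proprotein convertases, whereas PDGF-C and PDGF-D are secreted in a latent form and become active after proteases remove their CUB domain. PDGF-A and PDGF-C act mainly through the alpha receptor, PDGF-D mainly through the beta receptor, and PDGF-B through either. In the rodent brain Pdgfra is best known as a marker and survival receptor of oligodendrocyte precursors, with PDGF-A as their mitogen, and Pdgfrb as the receptor of pericytes, which are recruited by PDGF-B from endothelium.

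The libraries held 14285914 to 25048521 counts. All 9 entered one edgeR quasi-likelihood fit, and a gene was called at a Benjamini-Hochberg adjusted p under 0.05 over 13693 tested genes. Controls stood far from the other 6 libraries, and OGD replicate 1 stood apart from the rest on the second principal component (38.8, against -13.9 to 10.5). The labels do not say whether replicates were separate cultures or litters, so the p-values refer to the spread among these libraries alone, which may be technical. Levels are given as FPKM, the deposited values scaled by gene length and library total, and mean levels as mean ± SD of 3 libraries. Changes are log2 changes ± SE from the fit. The cell-type label held in part. Neuronal genes such as Tubb3, the neuronal beta tubulin, were strongly expressed in controls (1210 ± 113 FPKM), but so were the astrocyte gene Gfap (903 ± 62.2 FPKM) and the radial glia gene Fabp7 (815 ± 70.1 FPKM).

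After OGD the members moved in either direction, as did all tested genes. Relative to controls, 3 members were higher (Pdgfc, Pdgfd and Pdgfrb) and 3 were lower (Pdgfa, Pdgfb and Pdgfra). All 6 were therefore called, where 73.1% of all tested genes were, 36.3% as higher and 36.8% as lower. The FPKM of the OGD and control libraries did not overlap for any of the 6 members, nor for 75.3% of all tested genes. A call in this comparison was thus no more than what most tested genes showed, and an even split was what all tested genes showed. The same 3 members were higher and the same 3 lower without OGD replicate 1.

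Pdgfc was higher again where Wnt3a plus Rspondin 1 were given with OGD. It was the only member called in protein-treated OGD cultures against OGD cultures, where 27 genes, or 0.197% of those tested, were called, 0.175% as higher and 0.0219% as lower. The FPKM of these 2 groups did not overlap for Pdgfa, Pdgfc and Pdgfra, nor for 9.73% of all tested genes. The total of 27 depended on single libraries, with 49 genes without OGD replicate 1, 13 without OGD replicate 2, 12 without protein-treated replicate 2 and 17 without protein-treated replicate 3. Pdgfc was called in each of these fits.

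Against controls, protein-treated OGD cultures were higher in Pdgfc, Pdgfd and Pdgfrb and lower in Pdgfa, Pdgfb and Pdgfra. All 6 members were called, beside 72.6% of all tested genes, 36.6% as higher and 36.0% as lower. FPKM did not overlap for 5 of the members, all but Pdgfra, and for 79.1% of all tested genes. This comparison shares libraries with both of the others, so its values are given beside theirs and do not stand as separate evidence.

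**Figure D1:**
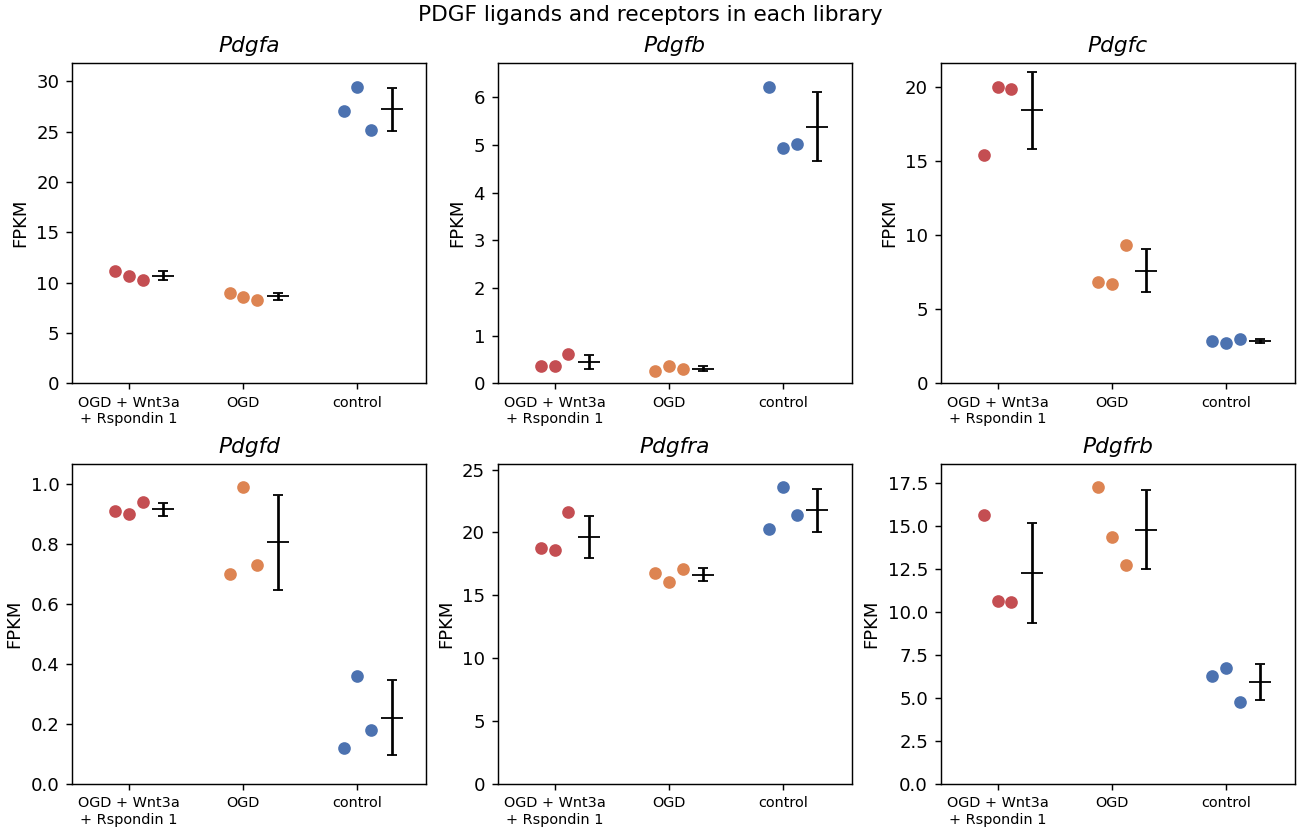
Level of each PDGF ligand and receptor in FPKM (vertical axes, each starting at 0) in the 9 libraries. Points are libraries in the order of their replicate numbers, and the bar beside each group is the mean ± SD (n = 3). Pdgfc averaged 18.4 FPKM in protein-treated OGD cultures, 7.6 FPKM in OGD cultures and 2.85 FPKM in controls, whereas Pdgfb averaged 0.443, 0.307 and 5.39 FPKM in the same groups.

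**Figure D2:**
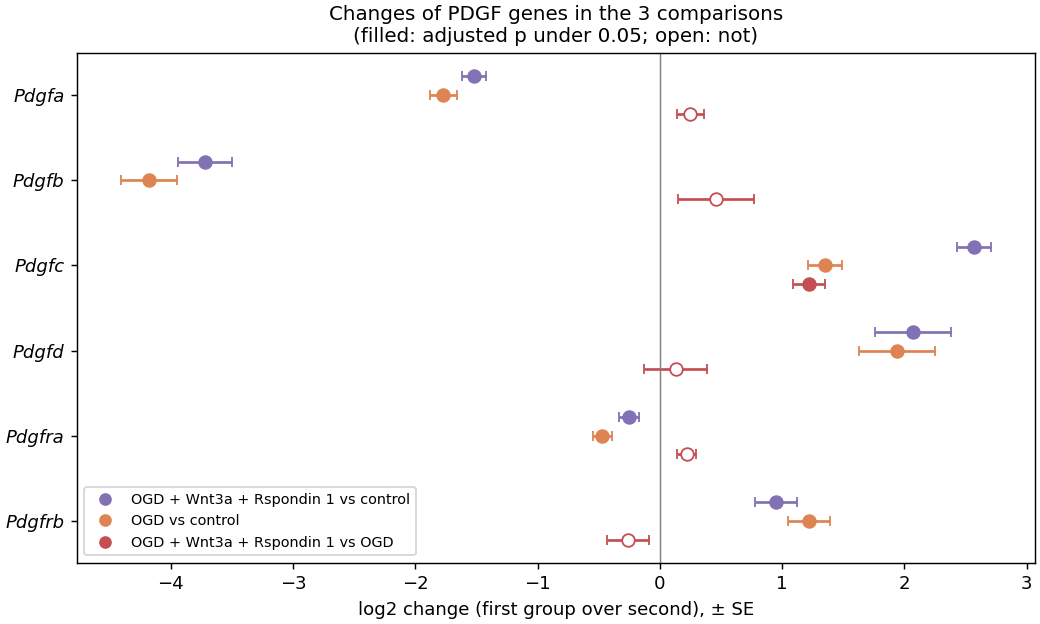
Log2 changes of the 6 members ± SE (horizontal axis) in the 3 comparisons, each as the group named first over the second. Filled points were called at an adjusted p under 0.05 by edgeR's quasi-likelihood test. Of the red points, which compare protein-treated OGD cultures with OGD cultures, Pdgfc alone is filled, at 1.22.

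Among the ligands, Pdgfc (ENSRNOG00000010695) encodes the latent alpha-receptor ligand PDGF-C. Its level was 15.38, 20.0 and 19.83 FPKM in protein-treated OGD cultures, 6.8, 6.7 and 9.3 FPKM in OGD cultures and 2.83, 2.74 and 2.97 FPKM in control cultures. The 3 groups did not overlap, every protein-treated library lay above every OGD library, and every OGD library lay above every control. Counts ran from 612 to 669 in protein-treated OGD libraries, 198 to 325 in OGD libraries and 82 to 154 in controls. Pdgfc rose by 1.22 ± 0.13 in protein-treated OGD cultures against OGD cultures, a 2.33-fold change (edgeR quasi-likelihood test, adjusted p = 0.000949). It stood at rank 5 by p among all tested genes in that comparison. In OGD cultures it had risen by 1.35 ± 0.14 against control (edgeR adjusted p = 1.5e-06), a 2.55-fold change. Both differences together made Pdgfc 5.94-fold higher in protein-treated OGD cultures than in control (log2 2.57 ± 0.14, edgeR adjusted p = 3.38e-09).

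The gene length implied by counts and FPKM differed between libraries for Pdgfc, from 1.91 to 2.18 kb, so its FPKM was set beside CPM (counts scaled to a common library total) after TMM scaling, which do not use length. These were 29.8, 38.3 and 38.1 in protein-treated OGD cultures, 13.8, 14.4 and 17.3 in OGD cultures and 5.91, 5.48 and 6.35 in controls. The separation of the groups was the same on that scale. The call between protein-treated OGD and OGD cultures held in all 17 alternatives tried, with log2 changes of 1.16 to 1.33. In the authors' deposited table the log2 change of Pdgfc between these groups was 1.28, with an FDR of 5.66e-12.

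Pdgfa (ENSRNOG00000001312) encodes PDGF-A, the mitogen of oligodendrocyte precursors. Its level was 11.15, 10.63 and 10.23 FPKM in protein-treated OGD cultures, 8.97, 8.58 and 8.3 FPKM in OGD cultures and 27.07, 29.46 and 25.17 FPKM in controls. All 6 libraries that went through OGD were far below every control. Pdgfa fell by 1.77 ± 0.11 in OGD cultures against control, a 3.41-fold difference (edgeR adjusted p = 9.54e-09), and by 1.52 ± 0.10 in protein-treated OGD cultures against control (edgeR adjusted p = 3.13e-08). Between protein-treated OGD and OGD cultures its log2 change was 0.25 ± 0.11, which did not pass the edgeR test (unadjusted p = 0.0453, adjusted p = 0.865), although the libraries did not overlap.

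Pdgfb (ENSRNOG00000017197) encodes PDGF-B, which binds both receptors and is made by endothelium and, in rodents, also by neurons. Its level was 0.37, 0.35 and 0.61 FPKM in protein-treated OGD cultures, 0.26, 0.37 and 0.29 FPKM in OGD cultures and 6.22, 4.93 and 5.01 FPKM in controls. Of the 6 members it had the largest change after OGD, and it was left with 8, 18 and 10 counts in OGD libraries, against 273, 168 and 274 counts in controls. Pdgfb fell by 4.18 ± 0.23 in OGD cultures against control, an 18.1-fold difference (edgeR adjusted p = 5.29e-09), and 0.482% of all tested genes had a lower log2 change. The fall was 3.72 ± 0.22 in protein-treated OGD cultures against control (edgeR adjusted p = 8.76e-09). On the log2(FPKM + 1) scale with limma, which understates the change of low genes, the log2 changes were -2.28 for OGD and -2.14 for protein-treated OGD cultures, each against control. Protein-treated OGD and OGD libraries overlapped, with a log2 change of 0.46 ± 0.31 (edgeR adjusted p = 0.976).

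The falls of Pdgfa and Pdgfb stood beside a general fall of neuronal transcripts. In OGD cultures against control, 10 of 10 neuronal markers fell, with a median log2 change of -2.63, where the median of all tested genes was 0.02. Calls over all tested genes were 36.8% lower and 36.3% higher. Their summed level was 472 to 608 FPKM in protein-treated OGD cultures, 468 to 632 FPKM in OGD cultures and 2720 to 2860 FPKM in controls. Elavl3, Tubb3 and Rbfox3 (NeuN) had log2 changes of -2.29 ± 0.10, -2.57 ± 0.13 and -2.83 ± 0.16. Endothelium is another known source of PDGF-B. Its defining marker Cldn5 had no read in any library, and Cdh5 and Flt1 had at most 5 counts. Of 4 endothelial markers tested, 2 rose (Kdr and Tek) and 2 fell (Ramp2 and Esam) after OGD, with the VEGF receptor gene Kdr at 1.35 ± 0.193 FPKM in OGD cultures and 0.31 ± 0.0985 FPKM in controls. The part of the neuronal genes in the falls of Pdgfa and Pdgfb was not tested, and in these bulk cultures fewer cells of a type and less RNA per cell cannot be told apart.

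Pdgfd (ENSRNOG00000029148) encodes the latent beta-receptor ligand PDGF-D. Its level was low throughout, at 0.91, 0.9 and 0.94 FPKM in protein-treated OGD cultures, 0.7, 0.99 and 0.73 FPKM in OGD cultures and 0.12, 0.36 and 0.18 FPKM in controls. Every library that went through OGD lay above every control, while protein-treated OGD and OGD libraries overlapped. These values rest on 53 to 65 counts in protein-treated OGD libraries, 35 to 78 counts in OGD libraries and 8 to 18 counts in controls. Pdgfd rose by 1.94 ± 0.31 in OGD cultures against control, a 3.84-fold change (edgeR adjusted p = 8.79e-05), and by 2.07 ± 0.31 in protein-treated OGD cultures against control (edgeR adjusted p = 4.65e-05). With limma on log2(FPKM + 1) these log2 changes were 0.57 and 0.66. Between protein-treated OGD and OGD cultures the log2 change was 0.13 ± 0.26 (edgeR adjusted p = 0.982).

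The ligand transcripts had a different make-up in each group. The summed FPKM of the 4 ligands was 30.4 ± 2.28 in protein-treated OGD cultures, 17.3 ± 1.12 in OGD cultures and 35.7 ± 2.13 in controls. Pdgfc made up 60.3 ± 4.29% of that sum in protein-treated OGD cultures, 43.6 ± 5.48% in OGD cultures and 8.01 ± 0.82% in controls. Pdgfa, by contrast, made up 35.3 ± 4.21%, 49.9 ± 4.74% and 76.3 ± 2.05% in the same order of groups. The share of Pdgfb was 1.45 ± 0.429% in protein-treated OGD cultures, 1.78 ± 0.386% in OGD cultures and 15.1 ± 2.01% in controls, and Pdgfd stayed under 6% in every library. The leading ligand transcript was thus Pdgfa in every control and Pdgfc in every protein-treated OGD library. In OGD cultures Pdgfa led in replicates 1 and 2 and Pdgfc in replicate 3.

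The summed FPKM of Pdgfa and Pdgfc, the ligands that act mainly on the alpha receptor, was 29.1 ± 2.22 in protein-treated OGD cultures, 16.2 ± 1.22 in OGD cultures and 30.1 ± 2.04 in controls. Ranges were 26.5 to 30.6 FPKM in protein-treated OGD cultures and 28.1 to 32.2 FPKM in controls, and they overlapped, while OGD cultures lay lower at 15.3 to 17.6 FPKM. The summed level of all 4 ligands did not overlap between any of the 3 pairs of groups. Its difference was -18.4 FPKM for OGD against control, 13.1 FPKM for protein-treated OGD against OGD cultures and -5.25 FPKM for protein-treated OGD against control. Each had p = 0.1 in a two-sided exact permutation test, the smallest p that 3 against 3 libraries allow, and 0.18 after adjustment over the 9 tests of sums and ratios. The last difference was -8.45 FPKM from TMM-scaled counts per kilobase.

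**Figure D3:**
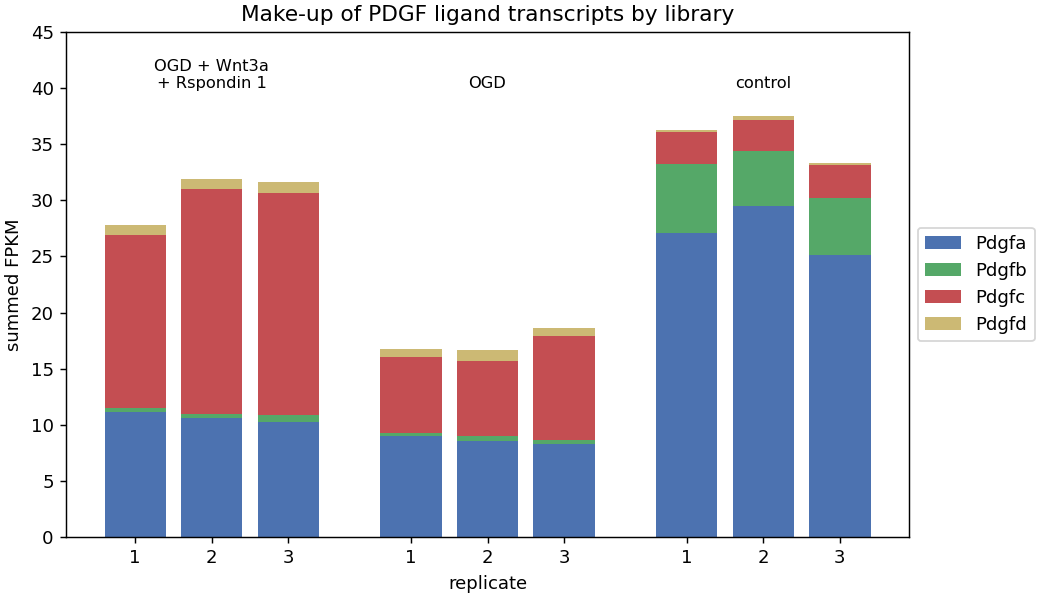
Summed FPKM of the 4 ligand genes in each library (bars from 0), stacked by gene, with the replicate number below each bar. The blue share, Pdgfa, is largest in controls (mean 76.3%), and the red share, Pdgfc, is largest in protein-treated OGD cultures (mean 60.3%).

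The log2 changes of the 2 receptors after OGD were -0.47 and 1.22. Pdgfra (ENSRNOG00000002244), the alpha receptor, had 18.75, 18.64 and 21.6 FPKM in protein-treated OGD cultures, 16.76, 16.08 and 17.12 FPKM in OGD cultures and 20.28, 23.59 and 21.39 FPKM in controls. OGD libraries were the lowest of the 9, and protein-treated OGD libraries overlapped with controls. With 1560 to 3490 counts in each library, Pdgfra was among the better measured members. It fell by 0.47 ± 0.08 in OGD cultures against control, a 1.39-fold difference (edgeR adjusted p = 0.000169). In protein-treated OGD cultures it fell by 0.25 ± 0.08 against control (edgeR adjusted p = 0.0132). That call was lost with library totals in place of TMM (log2 -0.15, edgeR adjusted p = 0.123), with limma on FPKM (log2 -0.15 and -0.14, adjusted p = 0.152 each) and without control replicate 2 or protein-treated replicate 1 or 2. Between protein-treated OGD and OGD cultures the log2 change was 0.22 ± 0.08, which did not pass the edgeR test (unadjusted p = 0.0189, adjusted p = 0.67), although the libraries did not overlap.

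Most of the listed markers of the oligodendrocyte precursor, which were not divided by stage, moved the other way after OGD. Of 10 precursor markers tested, 9 rose in OGD cultures against control and Cspg4 (NG2) fell, with a median log2 change of 1.45. Among all tested genes 36.3% rose and 36.8% fell. Neu4, Gpr17 and Sox10 rose by 1.55 ± 0.09, 2.08 ± 0.13 and 1.53 ± 0.10, and the lineage factors Olig1 and Olig2 by 0.90 ± 0.10 and 0.84 ± 0.07. Cspg4, the proteoglycan that also marks pericytes, fell by 0.64 ± 0.09, to 6.7 ± 0.704 FPKM in OGD cultures, against 9.86 ± 0.48 FPKM in controls. The summed level of the precursor markers was 722 to 788 FPKM in protein-treated OGD cultures, 760 to 854 FPKM in OGD cultures and 316 to 347 FPKM in controls. Markers of mature oligodendrocytes rose in 4 of 8 cases and fell in 1 (Mog), with a median of 0.90, and Cnp and Mbp rose by 1.69 ± 0.07 and 0.93 ± 0.11.

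Relative to the mean of those 10 markers, of which Cspg4 also fell, Pdgfra was lower after OGD. Its log2 FPKM minus the mean log2 FPKM of the 10 precursor markers was -1.37, -1.29 and -1.11 in protein-treated OGD libraries, -1.68, -1.60 and -1.49 in OGD libraries and 0.06, 0.14 and 0.15 in controls. The 3 groups did not overlap on this measure, with OGD cultures lowest. It was computed with the values of the receptor and the markers known and is given without a test.

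Pdgfrb (ENSRNOG00000018461), the beta receptor, moved the other way. It had 15.62, 10.6 and 10.59 FPKM in protein-treated OGD cultures, 17.23, 14.37 and 12.71 FPKM in OGD cultures and 6.24, 6.75 and 4.76 FPKM in controls. Every library that went through OGD exceeded every control, and replicate 1 was the highest in both OGD groups. Pdgfrb rose by 1.22 ± 0.17 in OGD cultures against control, a 2.33-fold change (edgeR adjusted p = 3.91e-05), and by 0.95 ± 0.17 in protein-treated OGD cultures against control (edgeR adjusted p = 0.000297). Between protein-treated OGD and OGD cultures the libraries overlapped and the log2 change was -0.26 ± 0.17 (edgeR adjusted p = 0.976). Without OGD replicate 1 the change after OGD was still called, at the highest adjusted p of its alternatives (edgeR, 0.00157).

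Markers of pericytes and smooth muscle, the cells for which Pdgfrb is best known, were uneven in these libraries. Of 12 pericyte and smooth muscle markers, 5 did not pass the filter on low counts. Higd1b had no read in any library, and Rgs5 and Kcnj8, which define pericytes, had at most 2 and 3 counts in any library. Of the 7 tested, 3 rose after OGD, 1 (Abcc9) fell and 3 were not called, with a median log2 change of 0.03. For all tested genes the shares were 36.3% higher and 36.8% lower. Those that rose were the contractile genes Tagln, Myh11 and Acta2. Tagln rose by 2.87 ± 0.13 to 749 ± 106 FPKM in OGD cultures, against 96.8 ± 10.8 FPKM in controls, and made up most of the summed level of the list, which was 639 to 756 FPKM in protein-treated OGD cultures, 667 to 880 FPKM in OGD cultures and 96.0 to 117 FPKM in controls. Notch3, a receptor of mural cells, had 6.98 ± 1.21 FPKM in OGD cultures and 6.45 ± 0.336 FPKM in controls, a log2 change of 0.03 ± 0.13 (edgeR adjusted p = 0.866). The part of mural cells in the change of Pdgfrb was not tested.

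Fibroblast and meningeal markers, from cells that can also express Pdgfra and Pdgfrb, were low. Tbx18 had no read in any library. Of 4 genes tested with edgeR 0 rose after OGD, also at an unadjusted p under 0.05 and with DESeq2 or limma. The other calls were 2 that fell (Dcn and Lum), where 36.8% of all tested genes fell and 36.3% rose. Col1a1, the collagen gene of fibroblasts, had 0.65 ± 0.185 FPKM in OGD cultures and 0.583 ± 0.225 FPKM in controls, and Dcn had 0.29 ± 0.331 and 1.16 ± 0.119 FPKM in the same order. Col3a1 had 0.597 ± 0.732 FPKM in OGD cultures and 0.21 ± 0.14 FPKM in controls, a log2 change of 1.41 ± 0.95 that was not called. The summed level of the list was 0.95 to 2.48 FPKM in protein-treated OGD cultures, 0.87 to 3.24 FPKM in OGD cultures and 2.77 to 3.07 FPKM in controls. The part of fibroblasts in the changes of the receptors was not tested.

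Most markers of astrocytes, progenitors and microglia moved in the direction of Pdgfrb. So did 9 of 10 oligodendrocyte precursor markers and 4 of 8 mature oligodendrocyte markers, while 1 of each list fell. After OGD, 36.3% of all tested genes rose and 36.8% fell. Of 9 astrocyte markers 7 rose and 1 (Glul) fell, with Gja1, Gfap and S100b at 2.03 ± 0.07, 1.89 ± 0.09 and 1.22 ± 0.07. Of 7 neural progenitor markers 5 rose and 1 (Hes5) fell, led by Vim (2.73 ± 0.11), Fabp7 (1.66 ± 0.08) and Pax6 (1.95 ± 0.11), and 7 of 7 tested microglial markers rose, among them the complement genes C1qa, C1qb and C1qc (2.16 ± 0.22, 2.62 ± 0.23 and 2.29 ± 0.24). Summed astrocyte markers stood at 5710 to 6050 FPKM in protein-treated OGD cultures, 6230 to 6910 FPKM in OGD cultures and 2660 to 2840 FPKM in controls. Progenitor markers summed to 4020 to 4530, 4010 to 4580 and 1050 to 1180 FPKM in the same order of groups, and microglial markers to 23.3 to 27.0, 22.2 to 24.2 and 3.53 to 5.74 FPKM. The part of these cell types in the changes of Pdgfc, Pdgfd and Pdgfrb was not tested.

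In protein-treated OGD against OGD cultures, 2 genes of the 9 marker lists were called, both of astrocytes. Among all tested genes 0.197% were called, 0.175% as higher and 0.0219% as lower. Gja1, the gap junction protein connexin 43, had a log2 change of 0.38 ± 0.06 (edgeR adjusted p = 0.0404), a call lost in 10 of 17 alternatives. Glul, glutamine synthetase, fell by 0.59 ± 0.07 (edgeR adjusted p = 0.00293). Hes5, a Notch target among the progenitor markers, had a log2 change of -1.08 ± 0.24 that did not pass the edgeR test (unadjusted p = 0.000591, adjusted p = 0.121) and was called in 2 of 17 alternatives. The median log2 change of each marker list lay between -0.15 and 0.20 in this comparison, over single genes that went either way, such as Abcc9 at 1.14 ± 0.37 and Mog at 0.67 ± 0.20, neither called. The part of these cell types in the rise of Pdgfc was not tested.

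**Figure D4:**
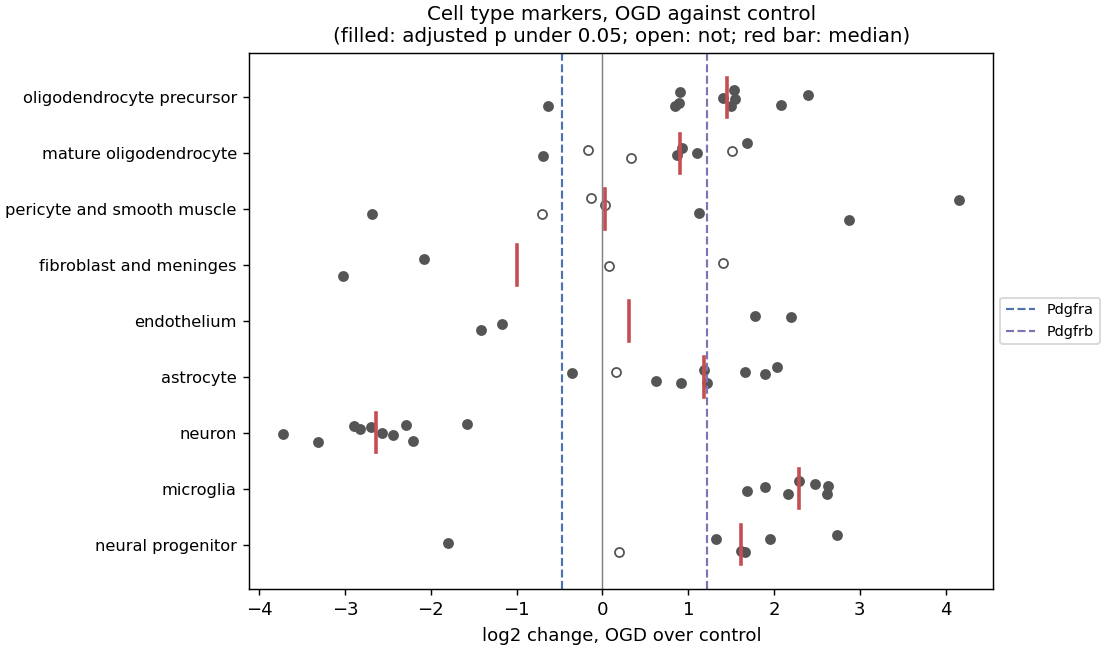
Log2 changes of the tested markers of 9 cell types in OGD cultures over control (horizontal axis), 1 point per gene, filled where called by edgeR at an adjusted p under 0.05, with the median of each list as a red bar. Dashed lines mark Pdgfra (-0.47) and Pdgfrb (1.22). Of the 10 oligodendrocyte precursor markers, 9 lie to the right of Pdgfra.

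The level of the alpha receptor relative to the beta receptor was lower in every library that went through OGD than in any control. The log2 ratio of Pdgfra to Pdgfrb FPKM was 0.702 ± 0.395 in protein-treated OGD cultures, 0.184 ± 0.236 in OGD cultures and 1.89 ± 0.245 in controls. OGD cultures and controls did not overlap, with a difference of -1.71, nor did protein-treated OGD cultures and controls, with a difference of -1.19. Each had p = 0.1 in a two-sided exact permutation test, the smallest possible with 3 against 3 libraries (0.18 adjusted over 9 tests). Protein-treated OGD and OGD cultures overlapped, with a difference of 0.518 (exact permutation p = 0.2, adjusted 0.225).

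Summed receptor FPKM was 31.9 ± 2.57 in protein-treated OGD cultures, 31.4 ± 2.24 in OGD cultures and 27.7 ± 2.32 in controls, and the libraries of each pair of groups overlapped. Exact permutation tests gave p = 0.2 for either OGD group against control and p = 0.9 between the 2 OGD groups, or 0.225 and 0.9 after adjustment. The ratio of summed ligand to summed receptor FPKM was 0.96 ± 0.142 in protein-treated OGD cultures, 0.554 ± 0.0663 in OGD cultures and 1.29 ± 0.0672 in controls. It was lowest in all 3 OGD libraries and was not tested.

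The order of the 6 members by FPKM, a level per gene length, differed between the groups. In protein-treated OGD cultures it ran from Pdgfra (19.7 ± 1.68 FPKM) over Pdgfc (18.4 ± 2.62), Pdgfrb (12.3 ± 2.9) and Pdgfa (10.7 ± 0.461) to Pdgfd (0.917 ± 0.0208) and Pdgfb (0.443 ± 0.145). There the libraries of neighbouring genes overlapped down to Pdgfa, so the leading 4 were not separated step by step. In OGD cultures the order was Pdgfra (16.7 ± 0.528 FPKM), Pdgfrb (14.8 ± 2.29), Pdgfa (8.62 ± 0.337), Pdgfc (7.6 ± 1.47), Pdgfd (0.807 ± 0.159) and Pdgfb (0.307 ± 0.0569), with overlap between the receptors and between Pdgfa and Pdgfc. In controls Pdgfa led (27.2 ± 2.15 FPKM), followed by Pdgfra (21.8 ± 1.68), Pdgfrb (5.92 ± 1.03), Pdgfb (5.39 ± 0.723), Pdgfc (2.85 ± 0.116) and Pdgfd (0.22 ± 0.125), and of these neighbours Pdgfrb and Pdgfb overlapped. Set against all tested genes, 64.7% had a lower mean FPKM than Pdgfc in protein-treated OGD cultures, 42.0% in OGD cultures and 22.4% in controls.

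The genes that process PDGF ligands changed unevenly after OGD. Of 8 tested, 5 rose, 1 fell and 2 were not called, with a median log2 change of 0.43. Beside them, 36.3% of all tested genes rose and 36.8% fell. Plat, tissue plasminogen activator, which cleaves latent PDGF-C, rose by 2.03 ± 0.07, to 154 ± 4.98 FPKM in OGD cultures, against 35.6 ± 1.62 FPKM in controls (edgeR adjusted p = 3.66e-10). Plau, urokinase, which cleaves latent PDGF-D, rose by 1.24 ± 0.33 at a low level, to 0.94 ± 0.139 FPKM in OGD cultures, against 0.357 ± 0.18 FPKM in controls. Plg, the gene of plasminogen, rose by 1.52 ± 0.35, and the convertase gene Pcsk6 by 0.21 ± 0.09, a call lost in 10 of 17 alternatives. Serpine2, an inhibitor of tissue plasminogen activator and urokinase, rose by 0.64 ± 0.06. Of the convertases that process PDGF-A and PDGF-B, Pcsk5 fell by 1.84 ± 0.17, and Furin had 14.8 ± 2.59 FPKM in OGD cultures and 12.8 ± 1.05 FPKM in controls, a log2 change of 0.12 ± 0.12 that was not called. None of the 8 was called by edgeR between protein-treated OGD and OGD cultures, beside 0.197% of all tested genes. Their median log2 change there was -0.08. An unadjusted edgeR p under 0.05 was seen for 0 of the 8 and for 784 of all 13693 tested genes. DESeq2 and limma also called 0 of the 8.

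Co-receptors and binding partners were also mixed in OGD cultures against control, with a median of 0.38. Of 10, 5 were higher and 4 lower, beside 36.3% and 36.8% of all tested genes. Sparc, a matrix protein that binds PDGF-B, rose by 1.34 ± 0.08, to 515 ± 41.6 FPKM in OGD cultures, against 192 ± 5.87 FPKM in controls. The sphingosine receptor gene S1pr1 rose by 1.07 ± 0.09, Pdgfrl, a receptor-like relative, by 1.43 ± 0.40, and Lrp1, an endocytic receptor that associates with the beta receptor, by 0.42 ± 0.13. The scaffold gene Slc9a3r2 fell by 2.23 ± 0.15, and Nrp1, a co-receptor shared with VEGF and semaphorins, and its relative Nrp2 fell by 1.29 ± 0.13 and 0.98 ± 0.11. Itgb3, the remaining one lower, was lost in 14 of 17 alternatives. Of the other receptors of the same structural class and their ligands, 3 of 6 were lower and 2 (Csf1 and Csf1r) higher, beside 36.8% and 36.3% of all tested genes. Their median was -1.03, and -1.23 to -0.62 over the alternatives. Kit had a log2 change of -2.79 ± 0.14, its ligand gene Kitlg one of -1.47 ± 0.19, and Il34, a ligand of Csf1r, one of -3.24 ± 0.26. In protein-treated OGD against OGD cultures edgeR, DESeq2 and limma each called 0 genes of these lists. Among all tested genes edgeR called 0.197% there. An unadjusted edgeR p under 0.05 was seen for 1 co-receptor or partner, 0 class relatives and 784 of all 13693 tested genes.

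Genes that act below the receptors split in either direction. Of 22 genes of receptor-proximal signalling, 9 rose and 10 fell in OGD cultures against control, with a median of -0.10. All tested genes split in a like way, with 36.3% higher and 36.8% lower. The docking protein gene Gab1 and the transcription factor gene Stat3 rose by 1.47 ± 0.08 and 1.35 ± 0.09, and the adaptor gene Shc2 fell by 2.08 ± 0.10. Of 11 genes of receptor attenuation, 3 rose and 5 fell, with a median of -0.27. Among these Sh3kbp1, an adaptor of receptor endocytosis, fell by 2.05 ± 0.15, while Cav1, Socs3 and Ptpn2 rose by 1.11 ± 0.10, 1.89 ± 0.23 and 0.64 ± 0.14.

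Feedback genes of the ERK pathway, which many receptor tyrosine kinases induce, were lower. In OGD cultures against control 9 of 11 fell and 0 rose in the edgeR fit, also at an unadjusted p under 0.05, with a median log2 change of -0.93. The shares over all tested genes were 36.8% lower and 36.3% higher. Of the 9, Spred1 (-0.23 ± 0.09) lost its call in 14 of 17 alternatives. With library totals in place of TMM 8 fell and 1, Spry2, rose, and limma on FPKM also called Spry2 as higher. Spred2, Spry4 and Etv5 fell by 1.40 ± 0.11, 1.63 ± 0.13 and 0.99 ± 0.09, with Spry4 at 1.45 ± 0.165 FPKM in OGD cultures and 4.23 ± 0.356 FPKM in controls. In protein-treated OGD cultures against control 8 of 11 fell, beside 36.0% of all tested genes, with a median of -0.76. For protein-treated OGD against OGD cultures edgeR, DESeq2 and limma each called 0 genes of the signalling, attenuation and feedback lists. Their medians were -0.03, -0.03 and -0.07. Among all tested genes edgeR called 0.197% in this comparison. Unadjusted edgeR p-values were under 0.05 for 0, 1 and 3 genes of these lists, and for 784 of all 13693 tested genes. Of the 3 feedback genes, 2 were higher and 1 lower.

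**Figure D5:**
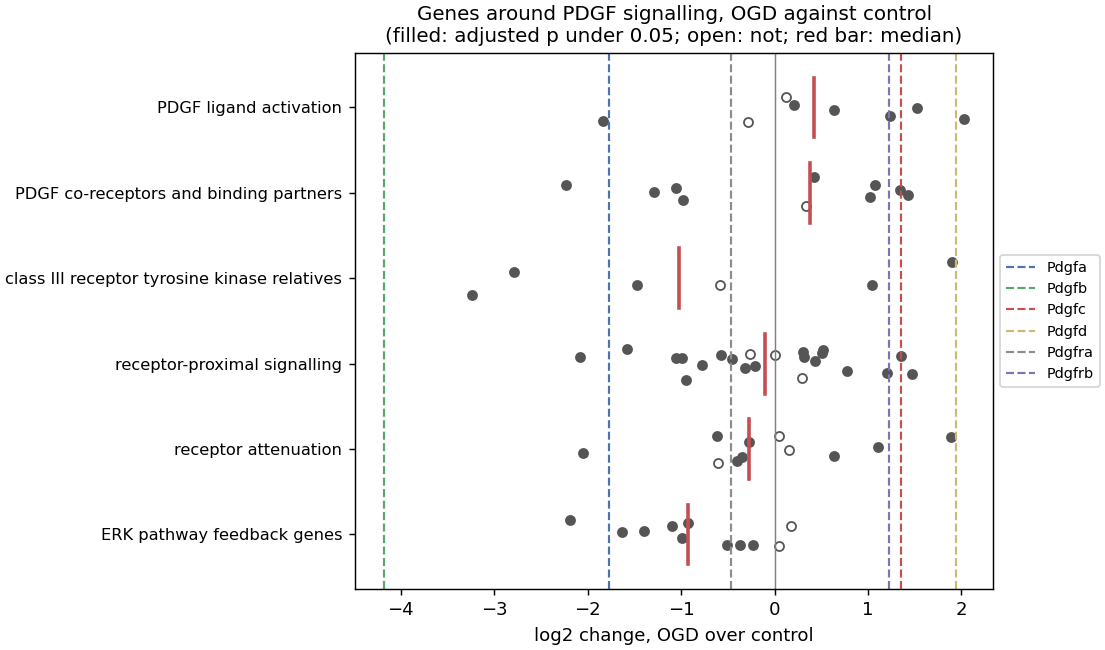
Log2 changes in OGD cultures over control (horizontal axis) of the tested genes of 6 lists around PDGF signalling, 1 point per gene, filled where called by edgeR at an adjusted p under 0.05, with the median of each list as a red bar. Dashed lines mark the 6 members, from Pdgfb (-4.18) to Pdgfd (1.94). The ERK feedback genes lie mostly left of 0, with a median of -0.93.

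The genes whose pattern over the 9 libraries was most like that of each member were taken by Pearson's r of log2 CPM. These values describe patterns over 9 libraries that fall into 3 groups, with the controls far from the rest, and they carry no test. For Pdgfc the closest were Laptm4a, a lysosomal membrane protein gene (r = 0.9884), Fam107a (0.9854) and the splicing kinase gene Clk1 (0.9827). Fam107a had 39.3 FPKM in protein-treated OGD cultures, 9.5 in OGD cultures and 2.52 in controls, the same stepwise order as Pdgfc. Laptm4a and Clk1 had this order too, and the choice by r favours it. Few genes resembled Pdgfc, with 53 of 11518 genes, or 0.46%, at r of 0.95 or above.

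Pdgfa and Pdgfb had far more company, with 2078 (18.0%) and 2238 (19.4%) genes at that level of likeness. The closest to Pdgfa were the phosphatase gene Ppp2ca (0.9981), Agfg2 (0.9975) and Fbxl17 (0.9959). Pearson's r leaves out the size of a change. Ppp2ca had 140 FPKM in protein-treated OGD cultures, 133 in OGD cultures and 167 in controls, where Pdgfa had 10.7, 8.62 and 27.2. The closest to Pdgfb were Trim36 (0.9977), Rgs8 (0.9969) and the kinase gene Pim2 (0.9964). For Pdgfd they were Cdc73 (0.9886), Hist1h2ao (0.9869) and Mbip (0.9852), and for Pdgfrb they included Cc2d1b (0.9880) and Tctn2 (0.9872). Pdgfra was the most isolated, with 2 genes, or 0.0174%, at r of 0.95 or above. Its nearest were Pcdhb2 (0.9574), Arf2 (0.9537) and the metabotropic glutamate receptor gene Grm3 (0.9483), which had 7.64 FPKM in protein-treated OGD cultures, 2.89 in OGD cultures and 25.1 in controls.

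The authors' deposited tables gave the same direction as the edgeR fit for each member in each comparison. Their log2 changes, which are ratios of mean FPKM, were -1.66 for Pdgfa, -4.13 for Pdgfb, 1.42 for Pdgfc, 1.87 for Pdgfd, -0.39 for Pdgfra and 1.32 for Pdgfrb in OGD cultures against control. For Pdgfra in protein-treated OGD cultures against control the authors' deposited table gave -0.15 with an FDR of 0.00354, a size nearer to that from library totals than to the -0.25 of the TMM fit. Between protein-treated OGD and OGD cultures the authors' deposited table gave an FDR of 1.0 for each member but Pdgfc.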

How the data were processed

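RNA was extracted with Trizol and made into libraries with an Illumina TruSeq kit (1 µg of input), per the labels' protocols. Bowtie 0.12.2 and 2 mouse builds, mm8 and mm9, appear in the submitters' processing notes, although samples and gene identifiers are rat. For the rat build, annotation, counter and use of strand nothing is given in those sources. No coordinates are therefore printed, and reads of overlapping or antisense genes cannot be told apart. The deposited count columns hold raw whole numbers for each gene, per the file headers. The deposited FPKM were made by the authors and scale counts by gene length and library total. The log2 ratios, p-values and FDR that the authors deposited come from an unnamed test and are quoted only as theirs. Table columns were matched to groups by the sample titles, with the letters WR in the tables taken as RW in the titles. Each of 18 library columns stood in 2 tables and was identical in both.

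The fits used edgeR 4.0.16 (R 4.3.3) on the counts as deposited. filterByExpr (minimum count 10 in 3 libraries, minimum total 15) left 13693 of 17332 genes with a read. TMM factors were 0.9435 to 0.9683 in controls and 1.001 to 1.033 in the others. One robust quasi-likelihood fit with 3 group means and 6 residual degrees of freedom (common biological coefficient of variation 10.3%) gave the 3 contrasts, with Benjamini-Hochberg adjustment over all tested genes and a threshold of 0.05. SE came from the F statistic. Sums and ratios were compared by two-sided exact permutation tests over libraries (SciPy 1.17.1). Patterns were compared over genes with a mean of at least 1 FPKM, as log2 CPM with a prior count of 2. Scripts were tested on simulated data. Alternatives were RLE factors, library totals, no filter, 6 libraries only, a replicate block, DESeq2 1.42.0, limma 3.58.1 on log2(FPKM + 0.1) and log2(FPKM + 1), and leaving out each library.

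The members and the 15 gene lists (150 of 155 symbols found) were chosen with earlier results of these data known. Genes named were the members, from each list the 3 smallest adjusted p (1 gene if under 3 passed), list genes that bind or process PDGF, defining markers and the 3 nearest patterns of each member. Cldn5, Cdh5, Flt1, Tek, Mog, Abcc9, Higd1b, Tbx18, Hes5, Plg, Pcsk6, Csf1, Csf1r, Nrp2, Itgb3, Ptpn2, Col3a1, Spred1 and Spry2 were named after their values were seen. Some genes that this rule gives are not reported here.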

Additional observations from a re-analysis of the deposited data

How the results depend on the processing

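Of 570 alternative values of 48 results, 555 kept their direction and their side of the threshold or stayed within the replicate spread, and none reversed. The 6 calls after OGD and the call of Pdgfc with Wnt3a plus Rspondin 1 held in all 17 alternatives each. The number of genes called between protein-treated OGD and OGD cultures (27) was 15 with only those 6 libraries, 89 with DESeq2 and 12 to 49 when single libraries were left out. It was 65 with a replicate block. The labels do not say whether replicate numbers pair the libraries, and they were not treated as paired because not every same-numbered pair deviated clearly together: deviations of same-numbered libraries correlated at 0.232, 0.0734 and 0.267 in that comparison, each library correlating best with its own number (a hint from the data, not the design), at 0.273, -0.0548 and 0.105 for OGD against control and at 0.0668, -0.0688 and 0.0026 for protein-treated OGD against control. The block changed no call of a member. Pdgfra in protein-treated OGD against control (log2 -0.25) was not called with library totals (-0.15, edgeR adjusted p = 0.123) or with limma on log2(FPKM + 0.1) and log2(FPKM + 1) (-0.15 and -0.14), nor without control replicate 2 (edgeR adjusted p = 0.101) or protein-treated replicate 1 (0.0594) or 2 (0.0587). Over all alternatives its adjusted p ran from 0.00494 to 0.152, and leaving out single libraries gave log2 changes of -0.31 to -0.18. From TMM-scaled counts the difference in summed ligand level was -20.4 for OGD against control and -8.45 for protein-treated OGD against control, beside -18.4 and -5.25 FPKM. With library totals the median log2 change of all genes was 0.10 for OGD against control (0.02 with TMM) and 0.14 for protein-treated OGD against control (0.03 with TMM). They gave 5526 genes higher and 4592 lower in the OGD comparison (4972 and 5040 with TMM), and 5669 and 4408 in the other (5018 and 4923). Depth limits Pdgfb, with 8 to 22 counts in libraries that went through OGD, and Pdgfd, with 8 to 18 counts in controls.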
